A study of Mus musculus with 4 samples.

Results

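Peritubular myoid cells, the flat smooth muscle-like cells that wrap each seminiferous tubule, were followed in single-cell RNA libraries of the young mouse testis. A cell was taken as one of them when the smooth muscle actin gene Acta2 and the smooth muscle myosin heavy chain gene Myh11 together held at least 0.3% of its unique molecular identifiers (UMIs, 1 per captured RNA molecule). It also had to hold at least 500 genes, at most 20% mitochondrial UMIs, and little RNA of 4 other cell classes: at most 2 UMIs of the pericyte genes Rgs5, Notch3, Higd1b and Abcc9, at most 2 of the germ cell genes Ddx4 and Dazl, under 0.2% of UMIs from the Leydig genes Cyp11a1, Hsd3b1 and Star, and under 0.3% from the Sertoli genes Aard, Cst9 and Cldn11. This left 2838 of 23670 kept cells: 834 from the 2-day culture, 620 from the 7-day culture, 747 from the testis at 9 days postpartum (dpp) and 637 from the testis at 14 dpp. The cells were chosen by their Acta2 and Myh11 UMIs and the excluded genes, so the levels of these genes are given as a description only.

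All 4 groups carried the Acr-Gfp transgene on a C57BL/6 background. The 2-day and 7-day cultures were testes taken at 7 dpp, cut into fragments and kept as organ culture on agarose gel under a chip with a ceiling of PDMS, a gas-permeable silicone. The medium contained a lipid-rich albumin (AlbuMAX). The testes at 9 and 14 dpp were the in vivo samples of the same age as each culture, so the 2-day culture was set against 9 dpp and the 7-day culture against 14 dpp. Every group was 1 library, so no difference below has a replicate check, no test was run, and group and library cannot be told apart. Cells were freed with collagenase and trypsin, and the labels do not say how many animals were pooled. Where 4 values follow each other without a name, they are in the order 2-day culture, 7-day culture, 9 dpp and 14 dpp.

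Myoid cells contract to move fluid and sperm along the tubule. Together with Sertoli cells they lay down the basement membrane on which spermatogonia sit, and they make growth factors for those stem cells, including GDNF. They respond to Desert hedgehog from Sertoli cells. Smooth muscle genes are classically driven by serum response factor and its partners of the myocardin family, which bind a short element called the CArG box.

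The promoters of the contractile genes were searched for that element because these genes mark the cells and differ between culture and testis below. In RefSeq (GRCm38.p6), 31 of 36 contractile and smooth muscle genes had at least 1 promoter, 36 promoters in all. Tagln, Myh11 and Actg2 were among those not searched. The 10-base CArG box was counted as full when all 6 inner bases were A or T and as near when 5 were, on both strands within 250 bases before the start, where the 2 kinds may overlap. A full box stood in 3 of the 36 (8.33%), against 482 of 32851 mouse promoters (1.47%). A full or near box stood in 7 (19.4%), those of Acta2, Itgb1, Myl12a, Myl6, Myl9, Pdlim3 and Vcl, against 8.59% of all promoters. The promoters of Acta2, which defines the cells, and of the 3 genes with a full box are shown 5′ to 3′ with the boxes in capitals. They are chr19:34255374-34255623 on the minus strand (Acta2, near boxes beginning 84 and 34 bases before the start), chr2:156775214-156775463 on the plus strand (Myl9, the myosin regulatory light chain, with a full box at 161 and a near box at 99), chr10:128493010-128493259 on the minus strand (Myl6, the essential light chain, a full box at 50) and chr14:20929148-20929397 on the plus strand (Vcl, the adhesion protein vinculin, a full box at 227). A match describes the sequence and does not show that a factor binds.
Acta2: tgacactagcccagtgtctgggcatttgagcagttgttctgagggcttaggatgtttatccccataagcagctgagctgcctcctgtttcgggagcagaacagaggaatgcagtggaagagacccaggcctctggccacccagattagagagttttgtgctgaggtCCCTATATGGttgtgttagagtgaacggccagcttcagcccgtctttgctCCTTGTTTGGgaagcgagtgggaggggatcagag
Myl9: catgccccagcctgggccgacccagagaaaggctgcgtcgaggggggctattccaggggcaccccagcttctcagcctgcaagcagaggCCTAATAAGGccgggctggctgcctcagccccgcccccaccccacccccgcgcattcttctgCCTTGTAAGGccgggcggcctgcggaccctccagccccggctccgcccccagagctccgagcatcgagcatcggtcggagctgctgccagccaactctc
Myl6: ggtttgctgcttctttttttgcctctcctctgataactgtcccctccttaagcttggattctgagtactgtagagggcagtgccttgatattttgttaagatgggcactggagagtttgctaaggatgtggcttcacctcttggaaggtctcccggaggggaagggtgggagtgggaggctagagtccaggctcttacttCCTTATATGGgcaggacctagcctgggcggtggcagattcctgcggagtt
Vcl: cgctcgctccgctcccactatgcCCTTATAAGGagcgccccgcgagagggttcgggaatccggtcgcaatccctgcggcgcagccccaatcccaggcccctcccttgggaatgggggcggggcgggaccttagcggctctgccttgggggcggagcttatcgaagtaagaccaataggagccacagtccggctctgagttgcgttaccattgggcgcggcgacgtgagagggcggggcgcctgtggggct

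The cells held a median of 2770.5 UMIs after 2 days and 3537 after 7 days of culture, 5103 at 9 dpp and 3777 at 14 dpp, with median gene numbers of 1359, 1621.5, 2156 and 1737. The summed counts behind the levels below were 2829583, 2393189, 4407278 and 2672654 UMIs. Any pair of libraries shared 35 to 86 cell barcodes, and among myoid cells 1 barcode was shared, between the 2-day culture and 9 dpp. A doublet caller marked 1.87% to 3.52% of kept cells per library and 6, 4, 1 and 2 of the myoid cells, which were kept.

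The marker levels are a description, since the rule fixed part of them. All 10 myoid markers, which include Acta2 and Myh11 of the rule, were detected in every library, and their summed level was 11774 CPM (UMIs of a gene scaled to a total of 1e6 over these cells) after 2 days and 17986 after 7 days of culture, 23787 at 9 dpp and 27359 at 14 dpp. The interstitial stroma, fibroblast-like cells taken from below the same actin threshold, held 674 to 1303 CPM of the same markers. The 11 pericyte markers summed to 71.7 to 90.7 CPM in myoid cells, 60.2 to 101 CPM in stroma and 3584 to 6497 CPM in mural cells. Of these markers, 4 were capped by the rule, and the 33 to 80 mural cells of a library were chosen by the same 4. Among the others, Cox4i2, a subunit of the respiratory chain, was at 0.836 to 3.86 CPM in myoid cells and 391 to 719 CPM in mural cells, and Rgs4, a regulator of G protein signalling, at 0.227 to 11.3 CPM and 147 to 496 CPM. Lhcgr, the luteinizing hormone receptor of Leydig cells, Fshr, the follicle-stimulating hormone receptor of Sertoli cells, and the macrophage genes Adgre1, Fcgr1 and Mrc1 had no UMI in myoid cells of any library. The 9 Leydig markers, 3 of which the choice of cells used, summed to 16.3 and 5.43 CPM after 2 and 7 days of culture and 14.3 and 9.73 CPM at 9 and 14 dpp, with 6, 3, 8 and 6 of them detected. Macrophage markers summed to 57.6, 19.6, 6.35 and 8.23 CPM in that order, highest in the 2-day culture. The 14 Sertoli markers, 3 of them capped by the rule, summed to 1858, 1369, 900 and 1384 CPM. Most of this came from the widely expressed protease gene Ctsl. In Sertoli cells the markers summed to 25806 to 35520 CPM. Those cells were chosen by at least 0.3% of UMIs from the same 3 genes, with at most 2 germ cell UMIs. This fixes part of the contrast. The 12 stromal markers stood at 2697 to 3614 CPM in myoid cells and 7364 to 11081 CPM in the stroma. The stroma was itself chosen in part by 2 of them, Dcn and Pdgfra.

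The spread of the Acta2 plus Myh11 share, the measure that chose the cells, differed between libraries. Their median Acta2 plus Myh11 share was 0.637% of UMIs after 2 days and 1.002% after 7 days of culture, 1.34% at 9 dpp and 1.52% at 14 dpp. In both testes few cells lay near the threshold, with 7 to 30 cells at 9 dpp and 3 to 8 cells at 14 dpp per 0.1% step. In the 2-day culture the cells ran on across it, with 222, 174, 163 and 133 cells in successive steps, so there the rule cut a continuous range. In the 7-day culture the steps held 78, 45, 40 and 35 cells and then 39, 51, 47 and 52, a shallow dip above the threshold. Just outside and just inside the threshold (0.25% to 0.3%, and 0.3% to 0.35%) lay 82 and 81 cells after 2 days in culture, 20 and 22 after 7 days, and in the testes 4 and 2 (9 dpp) and 1 and 2 (14 dpp). In the 2-day culture Mylk was at 207 CPM outside and 300 CPM inside, and Dcn, the stromal proteoglycan decorin, at 2042 and 1578 CPM. Tagln went the other way, at 1058 CPM outside and 860 CPM inside. Myh11 had no UMI in 432 of the 2-day cells (51.8%), 157 of the 7-day cells (25.3%), 105 at 9 dpp (14.1%) and 67 at 14 dpp (10.5%). Median depth, given above, was lowest in the 2-day culture.

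**Figure D1:**
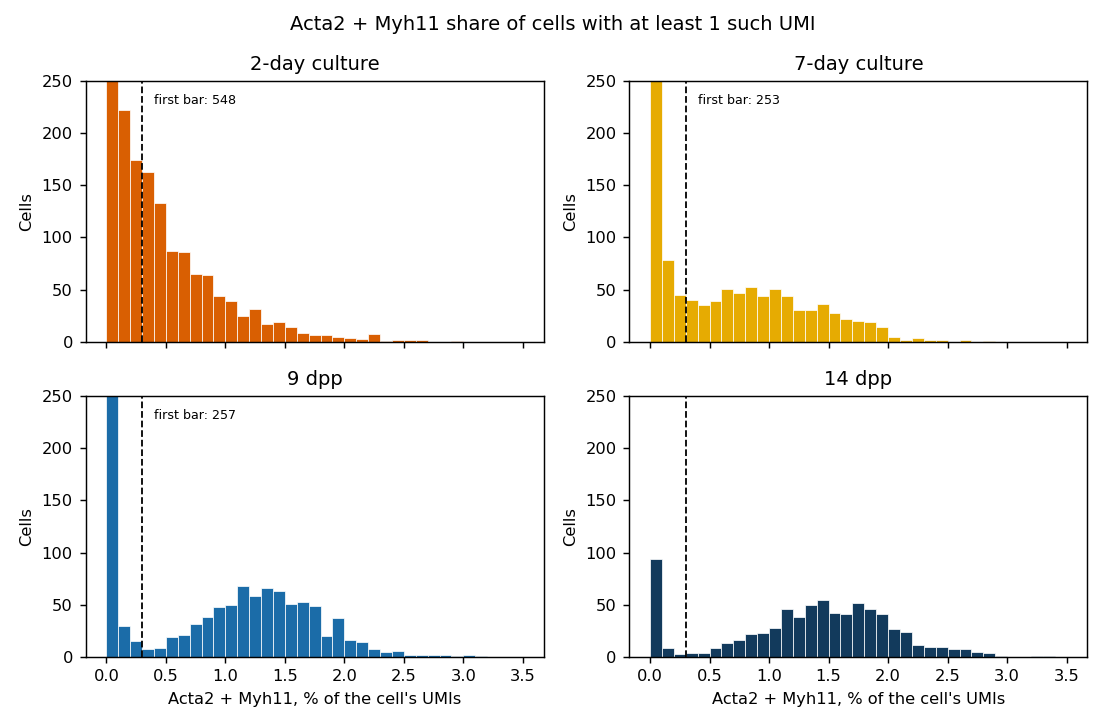
Number of cells (y axis) by the share of UMIs from Acta2 plus Myh11 (x axis, percent, steps of 0.1%) in each of the 4 libraries. The dashed line is the 0.3% threshold, and a first bar above 250 cells is cut there. Both testes show a separate group of cells above 0.3% with medians of 1.34% and 1.52%, while in the 2-day culture the counts run down across the line.

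Myoid cells made up 11.7% of kept cells after 2 days of culture (exact binomial 95% interval 11.0% to 12.5%) and 12.6% after 7 days (11.7% to 13.6%). In the testis they were 14.1% at 9 dpp (13.2% to 15.1%) and 10.1% at the later age (9.32% to 10.8%). The log2 ratio of the shares was -0.27 for the 2-day culture against 9 dpp (-0.40 to -0.14) and 0.33 for the 7-day culture against 14 dpp (0.18 to 0.48). Both directions depended on the threshold. With at least 0.15% the first ratio was 0.11, and with at least 1.2% the second was -0.76, so no direction is read from the share. These intervals and all others cover counting error only.

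Levels between libraries are compared as the log2 ratio of CPM + 1, and a gene counts as higher or lower when that ratio passes 1 in size, a 2-fold difference on that scale. In the 2-day culture against 9 dpp, 544 of 10414 genes were higher (5.22%) and 676 lower (6.49%), 11.7% together. With trimmed-mean scaling the split was 636 higher and 523 lower, and the median of all genes went from -0.12 to -0.01. In the 7-day culture against 14 dpp, 471 genes were higher (4.52%) and 388 lower (3.73%), 8.25% together. From 9 to 14 dpp, 205 were higher (1.97%) and 376 lower (3.61%), 5.58% together, and from the 2-day to the 7-day culture 405 were higher (3.89%) and 453 lower (4.35%), 8.24% together. The 4 comparisons share libraries in pairs and are not independent of each other. The genes tested were those with 50 UMIs over the 4 libraries together, which lets in genes that only the cultures express and so fixes their direction. Genes that only the testes express are let in and fixed in the same way. A minimum of 50 UMIs in the testes alone, added after the data were seen, kept 9151 genes. Of these 3.07% were higher and 6.78% lower after 2 days, and 2.51% higher and 3.72% lower after 7 days. List counts under it are given as with the testis minimum.

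**Figure D2:**
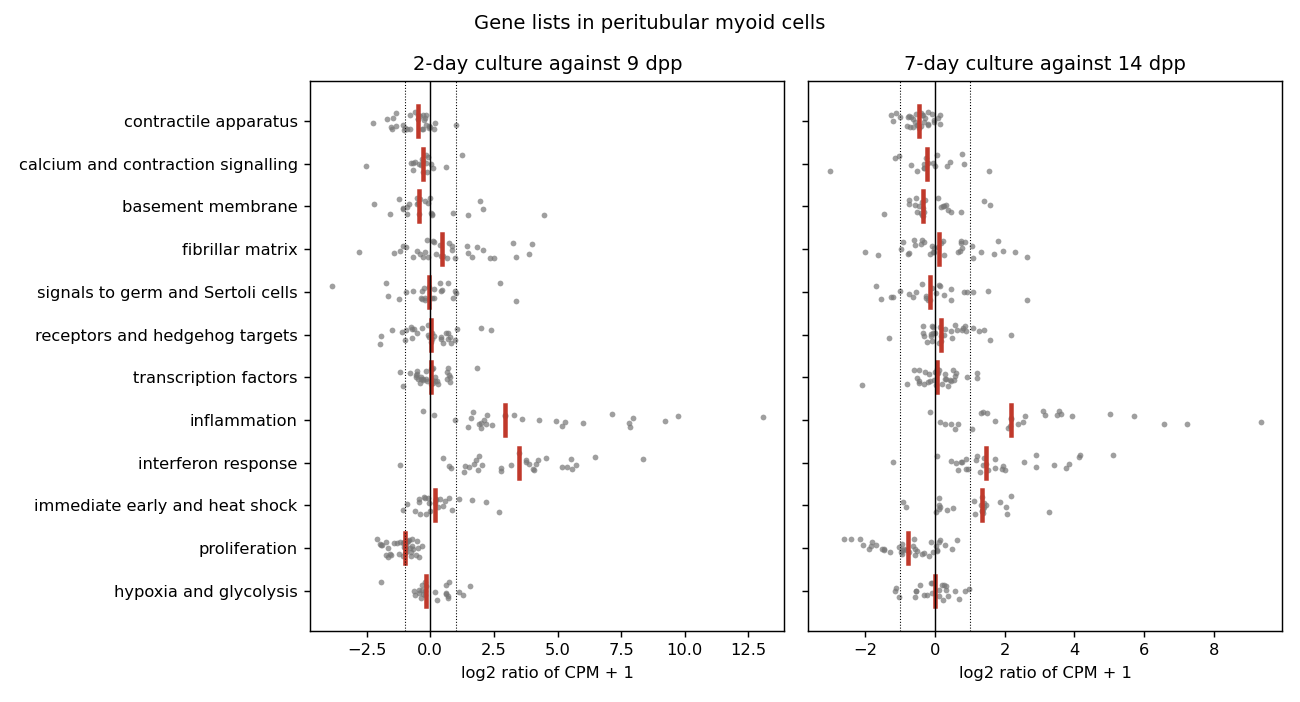
Log2 ratios of CPM + 1 (x axis) for each tested gene of 12 gene lists (rows) in myoid cells, for the 2-day culture against 9 dpp and the 7-day culture against 14 dpp. Each point is a gene, the red bar is the list's median and the dotted lines mark -1 and 1. The inflammation and interferon lists lie to the right in both panels, with medians of 2.95 and 3.50 in the first, and the proliferation list lies to the left. With the testis minimum, which leaves out genes that only the cultures let in, those 2 medians are 2.11 and 1.81.

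Contractile genes past the mark were mostly lower in the cultures. Of 31 contractile genes tested, 9 were lower and 1 higher in the 2-day culture against 9 dpp, with a median log2 ratio of -0.49 beside -0.12 over all genes, of which 6.49% were lower. With trimmed-mean scaling 7 were lower and 1 higher, beside 5.02% and 6.11% of all genes. In the 7-day culture against 14 dpp 4 were lower and none higher, with a median of -0.46 beside -0.02, where 3.73% of all genes were lower. The difference shrank with the actin threshold. At 0.6% 5 were lower and 1 higher after 2 days (median -0.28), beside 6.74% and 4.45% of all genes. After 7 days 3 were lower there (-0.33), beside 4.2%. At 1.2% 1 was lower and 2 higher after 2 days (-0.16), beside 10.5% and 4.5%, and none after 7 days (-0.18). The medians with trimmed-mean scaling were -0.38 after 2 days and -0.43 after 7 days. The summed level of the list was 15424 CPM after 2 days and 20260 CPM after 7 days of culture, against 25399 CPM at 9 dpp and 28906 CPM at 14 dpp. Every one of the 4 libraries kept the list far above its own stroma: 22, 25, 26 and 27 of the 31 genes were higher in myoid cells than in stroma (2-day, 7-day, 9 dpp, 14 dpp), where 4.86%, 6.03%, 6.91% and 7.74% of all genes were. That contrast follows in part from the choice of the cells.

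Cnn1, which encodes calponin, a brake on actomyosin, stood at 76.0 CPM after 2 days and 279 after 7 days of culture, 363 at 9 dpp and 409 at 14 dpp. The 2-day library was the low one and the 7-day library lay nearer to the testes. Its log2 ratio was -2.24 after 2 days (95% interval of the ratio without the added 1, -2.47 to -2.05) and -0.55 after 7 days (-0.69 to -0.41). Myl9 was at 2253, 4394, 6180 and 6844 CPM in the same order, with log2 ratios of -1.46 and -0.64. Mylk, the myosin light chain kinase that starts smooth muscle contraction (chromosome 16, 34745210 to 35002420, GRCm38), was at 712, 1338, 1805 and 2177 CPM. Both genes were lowest in the 2-day culture and below their testis of the same age in each culture. The enteric smooth muscle actin Actg2 was at 82.7, 145, 270 and 349 CPM, with log2 ratios of -1.69 (-1.91 to -1.50) and -1.26 (-1.45 to -1.09), so it passed the 2-fold mark in both pairs. Tpm2, a tropomyosin, was at 806, 1481, 1632 and 2613 CPM. The caveolar coat gene Cav1 and the actin crosslinker gene Flna followed the same order, at 129, 211, 384 and 428 CPM and at 149, 259, 420 and 441 CPM. Csrp2, a LIM protein of muscle, was at 242 and 188 CPM in the cultures and 510 and 434 CPM in the testes, past the mark in both pairs.

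Not every smooth muscle gene did so. Tagln, which encodes the actin-binding protein transgelin and is itself a myoid marker, was at 1100, 918, 1127 and 1222 CPM, a spread of far less than 2-fold. In the stroma it was at 251 CPM in the 2-day culture, 82.7 CPM in the 7-day culture, and 6.72 and 6.49 CPM in the testes. Myl6 was at 2231, 2972, 3140 and 3629 CPM. The tropomyosin gene Tpm1 was at 1320 and 1269 CPM in the cultures and 2013 and 2117 CPM in the testes, short of the mark in both pairs. Itga1, the collagen-binding integrin, was at 124 and 138 CPM in the cultures and at 60.3 CPM at 9 dpp and 130 CPM at 14 dpp, and it was the single contractile-list gene higher in the 2-day culture (log2 ratio 1.03, 0.81 to 1.27). The high value of this gene at 14 dpp leaves its 7-day ratio small. From the 2-day to the 7-day culture Cnn1, the myosin phosphatase subunit Ppp1r12b and the actin nucleator leiomodin Lmod1 were higher by log2 ratios of 1.86, 1.32 and 1.13, and no contractile gene was lower. Of all genes 3.89% were higher and 4.35% lower.

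**Figure D3:**
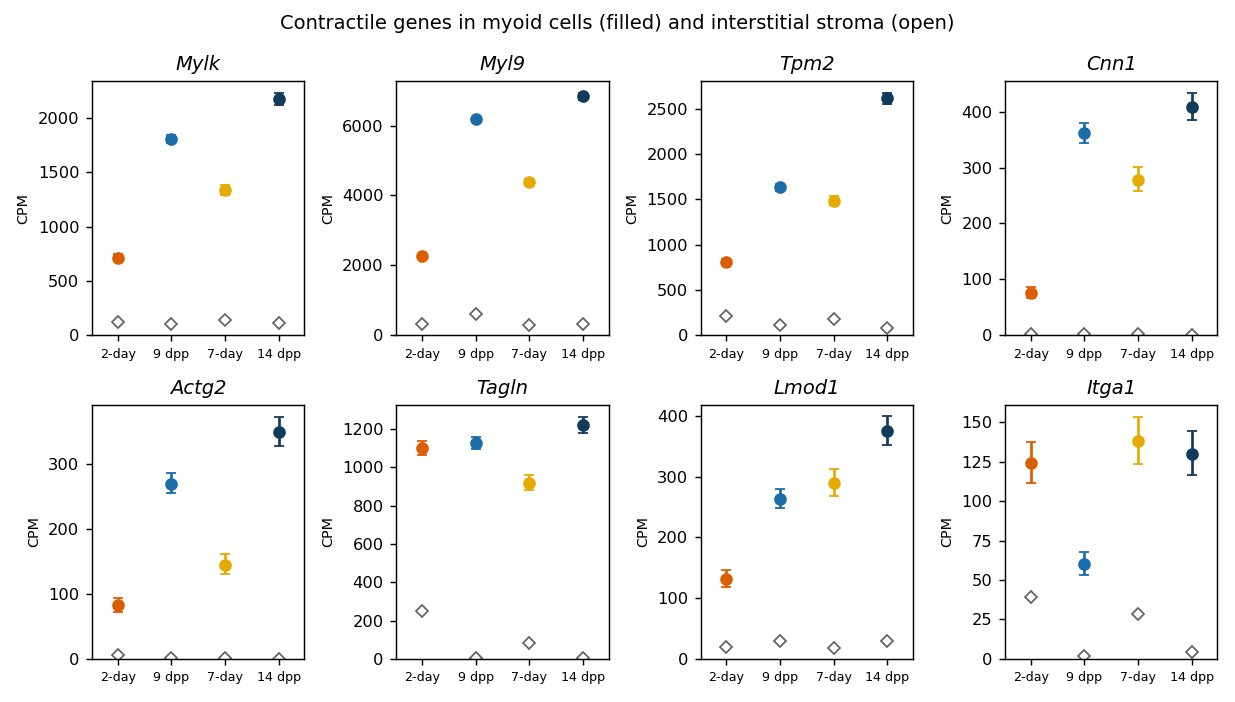
CPM (y axis) of 8 contractile genes in myoid cells (filled points, bars are exact Poisson 95% intervals) and in interstitial stroma (open diamonds) of the 4 libraries. Cnn1, Myl9 and Actg2 are lowest in the 2-day culture, where Cnn1 is at 76.0 CPM, while Tagln stays between 918 and 1222 CPM.

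Shares of cells carry the same order when depth is made equal. Each cell was thinned to 2000 UMIs, leaving out 157, 52, 21 and 57 shallower cells. Cnn1 was then found in 12.1% of 2-day cells, 35.9% of 7-day cells, 44.8% at 9 dpp and 48.1% at 14 dpp, and in 17.0%, 48.4%, 69.3% and 65.3% without thinning. Germ cells, which should lack it, held a Cnn1 UMI in at most 0.401% of thinned cells. They were chosen to hold no Acta2 or Myh11 UMI, which can lower that share. The median thinned cell held 29 UMIs of the contractile list after 2 days and 38 after 7 days of culture, 51 at 9 dpp and 57 at 14 dpp.

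The share classes of the cells differed in size between libraries. Cells with 0.3% to 0.6% Acta2 plus Myh11 were 45.9% of the 2-day cells, 18.4% of the 7-day cells, 4.55% at 9 dpp and 2.51% at 14 dpp. Cells with 1.2% or more were 15.3%, 35%, 61.2% and 74.3%. Within the upper class the contractile list stood at 25315, 27708, 28946 and 31630 CPM, within the lower class at 12158, 11626, 11867 and 12967 CPM, and in the class between them at 16408, 18302, 20902 and 21243 CPM. Single genes still differed within a class. Between 0.6% and 1.2% Cnn1 was at 75.9 CPM after 2 days of culture against 183 CPM at 9 dpp, and Myl9 at 2649 and 5145 CPM. In the lower class Tagln was at 945 and 158 CPM and Myl9 at 1359 and 2578 CPM in these libraries. The cells at or above 1.2%, a comparison added after the data were seen, gave the small counts above, where 10.50% and 5.02% of all genes were lower. There Cnn1 was at 303 CPM in the 2-day culture and 496, 486 and 477 CPM in the others. Acta2 and Myh11 set these classes, so a gene that follows them is held level, and the part of the class sizes in the contractile difference was not tested.

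Of 36 listed genes for contractile receptors and calcium handling, 18 were abundant enough to test. After 2 days 1 was higher and 1 lower, near the 11.7% of all genes past the mark. After 7 days 1 was higher and 3 lower, beside 8.25% of all genes. The testis minimum left 16, of which 1 was higher and none lower after 2 days, beside 3.07% and 6.78% of all genes. After 7 days 1 was higher and 2 lower, beside 2.51% and 3.72%. P2rx1, the ATP-gated calcium channel of smooth muscle, had 0 UMIs after 2 days and 1 after 7 days of culture, 21 at 9 dpp and 28 at 14 dpp. Taking 3 UMIs as the limit that a count of 0 allows, it was at least 4.49-fold lower in the 2-day culture than at 9 dpp. P2rx1 reached the minimum of 50 UMIs almost wholly through the testes, which fixes its direction. Ednra, a receptor for the contractile peptide endothelin, was at 141, 153, 172 and 86.1 CPM. Its relative Ednrb was at 42.1, 34.7, 47.9 and 11.2 CPM, low only at 14 dpp, which gave a log2 ratio of 1.55 for the 7-day culture and -1.999 from 9 to 14 dpp. The vasopressin receptor gene Avpr1a went the other way in the testis, from 4.31 to 18.0 CPM, and was at 3.18 and 7.52 CPM in the cultures. Kcnmb1, a subunit of the large potassium channel that relaxes smooth muscle, was at 17.0, 5.85, 6.58 and 13.1 CPM, so it was above 9 dpp in the 2-day culture and below 14 dpp in the 7-day culture. Of the other 3 most abundant genes of the list, Rhoa, the small GTPase that sustains contraction, was at 282 to 401 CPM, the nitric oxide receptor subunit Gucy1a1 at 108 to 176 CPM and the calcium release channel Itpr1 at 61.1 to 94.2 CPM.

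Of 24 basement membrane genes tested, 4 were higher and 5 lower after 2 days, and 2 higher and 1 lower after 7 days. Of all genes it was 5.22% and 6.49%, and 4.52% and 3.73%. With trimmed-mean scaling 5 were higher and 3 lower after 2 days, beside 6.11% and 5.02% of all genes. With the testis minimum 1 of 20 was higher and 5 lower after 2 days (median -0.50), and 1 higher and 1 lower after 7 days (-0.35). Among the lower were laminin chains: Lamc3 was at 28.3 CPM after 2 days and 106 after 7 days of culture, 133 at 9 dpp and 181 at 14 dpp, and Lamb2 at 25.8, 59.3, 78.5 and 165 CPM. Lamb2 passed the mark in both pairs (log2 ratios -1.57 and -1.46). Lama4, a laminin chain of vessels and muscle, was instead at 21.2 CPM in the 2-day culture and 4.31 to 10.4 CPM elsewhere. Fbln2, a fibulin of elastic matrix, had 89 UMIs in the 2-day culture and 4, 2 and 0 in the other libraries, so it was tested only through that culture. Lama4 also reached the minimum only with the UMIs of the cultures. The collagen IV chains of the mature tubule wall were high in myoid cells of each library, with Col4a4 at 370, 820, 704 and 1053 CPM against 68.0 to 183 CPM in stroma, and Col4a3 at 187, 393, 356 and 494 CPM against 24.8 to 41.0 CPM. Sparc, a matrix glycoprotein that binds collagen IV, was the most abundant gene of the list, at 10558, 6854, 5630 and 6082 CPM. Fbln1 was at 62.9, 101, 59.2 and 32.9 CPM and passed the mark after 7 days.

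In the fibrillar matrix list, 11 genes of 34 were higher and 4 lower after 2 days, with a median of 0.46, and 8 were higher and 2 lower after 7 days, with a median of 0.12, beside 5.22% and 6.49%, and 4.52% and 3.73%, of all genes. Of the 30 left with the testis minimum 7 were higher and 4 lower after 2 days (median 0.31), and 4 higher and 2 lower after 7 days (-0.04). The 7-day result also depended on the threshold: with 0.6%, 4 of 33 were higher and 2 lower (median -0.08), beside 3.66% and 4.2% of all genes. Timp1, a secreted inhibitor of matrix metalloproteases (chromosome X, 20870166 to 20874735), was at 928 CPM after 2 days and 158 after 7 days of culture, 57.9 at 9 dpp and 44.2 at 14 dpp. Both cultures were above both testes. Its log2 ratios were 3.98 (3.82 to 4.19) and 1.82. Timp3, another inhibitor of the same family that stays bound to matrix, had the reverse order at 55.1, 209, 394 and 398 CPM, with a log2 ratio of -2.81 (-3.08 to -2.60) after 2 days. Mgp, the matrix Gla protein that holds back calcification, was at 5238, 4322, 933 and 1116 CPM, high in both cultures. The insulin-like growth factor binding protein gene Igfbp7 was at 7990, 5023, 2584 and 3159 CPM, and the small proteoglycan biglycan, Bgn, at 4244, 2161, 1567 and 1033 CPM. Elastin, Eln, was at 537 and 670 CPM in the cultures and 1431 and 1133 CPM in the testes. The elastic fibre protein gene Mfap4 was at 1308 and 1497 CPM against 2747 and 2957 CPM. Igfbp5 was at 382 CPM in the 2-day culture and 2.25 to 39.0 CPM in the other libraries, and Thbs1, the matrix protein thrombospondin 1, at 50.2 CPM against 2.25 to 5.85 CPM. Both stood apart in the 2-day culture, and Thbs1 reached the minimum of 50 UMIs only with the cultures. Lum, the proteoglycan lumican, was at 20.1 and 31.3 CPM in the cultures and 4.08 and 5.61 CPM in the testes. In cells at or above 1.2% it had 1, 0, 9 and 0 UMIs, so the difference was not seen there. It too reached the minimum only with the cultures. Its relative fibromodulin, Fmod, was lower in the cultures, at 14.5, 20.9, 34.7 and 87.2 CPM.

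The stroma differed in the same way for several of these genes. Timp1 in stroma was at 2250, 415, 104 and 94.1 CPM and Mgp at 3387, 5273, 555 and 1488 CPM. In the myoid cells at or above 1.2% Timp1 was at 317, 122, 55.9 and 40.6 CPM, Timp3 at 80.0, 271, 415 and 420 CPM and Mgp at 3828, 3024, 918 and 1094 CPM. The order of the libraries was therefore kept in the cells with the highest share for these 3 genes, at smaller 2-day ratios of 2.48 for Timp1, -2.36 for Timp3 and 2.06 for Mgp. The fibrillar list as a whole was not. Its 2-day median was -0.05 there, with 5 genes higher and 3 lower of 28, beside 4.5% and 10.5% of all genes. Its 7-day median was -0.18, with 2 higher and 3 lower, beside 3.05% and 5.02%.

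**Figure D4:**
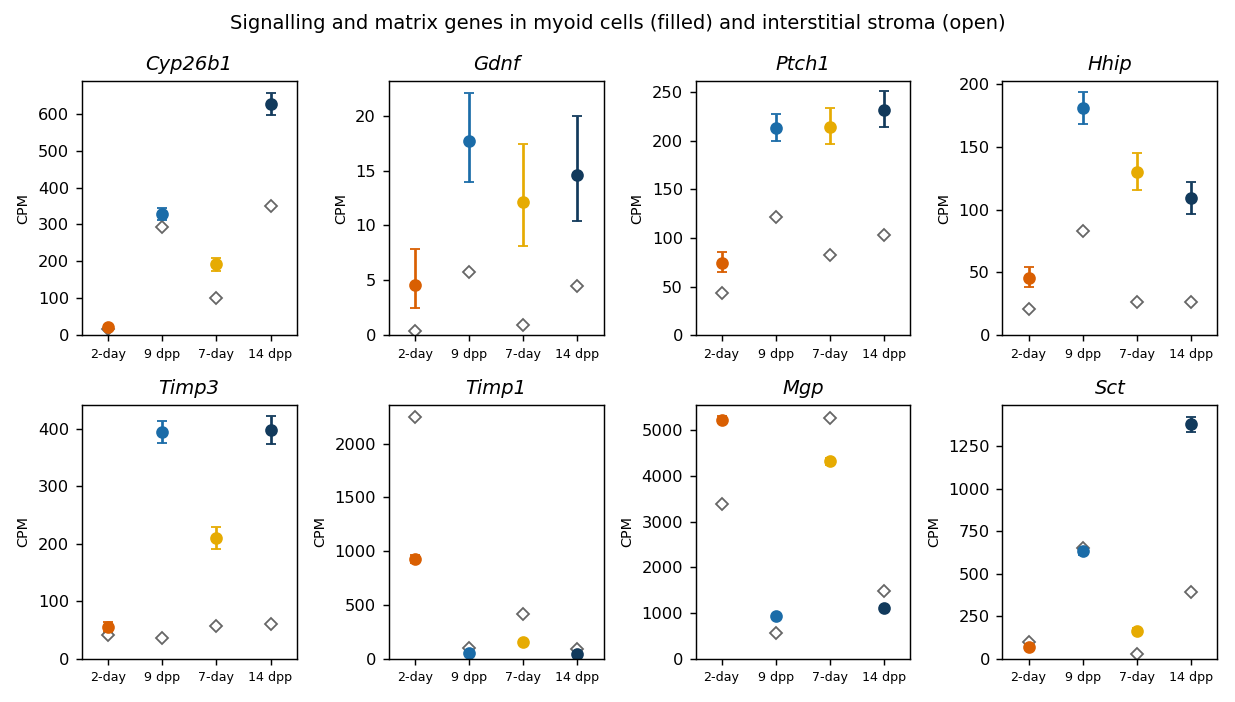
CPM (y axis) of 8 genes of niche signals and matrix in myoid cells (filled points, exact Poisson 95% intervals) and interstitial stroma (open diamonds) of the 4 libraries. Cyp26b1, Gdnf, Ptch1, Hhip and Timp3 are lowest in the 2-day culture, Timp1 and Mgp are higher in the cultures than in the testes, and Sct is lower in both cultures.

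Of 25 signal genes tested, 3 were higher and 4 lower in each culture against its testis, beside 5.22% and 6.49%, and 4.52% and 3.73%, of all genes. After 2 days 5 were higher and 4 lower with trimmed-mean scaling, beside 6.11% and 5.02% of all genes. With a threshold of 0.6% none was higher and 4 lower of 22, beside 4.45% and 6.74%. With 1.2% none was higher and 2 lower of 21, beside 4.5% and 10.5%. The testis minimum left 22, of which 1 was higher and 4 lower after 2 days, and 2 higher and 4 lower after 7 days. Cyp26b1, the enzyme that destroys retinoic acid and so shields germ cells from it (chromosome 6, 84571414 to 84593908), was at 21.6 CPM after 2 days and 192 after 7 days of culture, 328 at 9 dpp and 626 at 14 dpp. The 2-day library was far below the others. The log2 ratios were -3.87 (-4.32 to -3.56) and -1.70 (-1.86 to -1.56). Thinned to 2000 UMIs, 3.55% of 2-day cells held a Cyp26b1 UMI, against 28.5%, 45.0% and 65.9% in the other libraries (5.64%, 43.5%, 72.0% and 84.6% unthinned). Germ cells held it in at most 1.60% of thinned cells. At or above 1.2% actin share it was still at 33.1 CPM against 334 CPM at 9 dpp, a log2 ratio of -3.30. The stroma had the same order, at 17.0, 99.8, 294 and 352 CPM. Aldh1a2, which makes retinoic acid, was at 25.1 CPM in the 2-day culture and 0.748 to 2.95 CPM elsewhere. It had no UMI in the 2-day cells at or above 1.2%, and it reached the minimum only with the UMIs of the cultures.

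Gdnf, the stem cell niche factor, was rare: 13, 29, 78 and 39 UMIs, or 4.59, 12.1, 17.7 and 14.6 CPM. It was below 9 dpp in the 2-day culture (log2 ratio -1.74, -2.92 to -1.09), while after 7 days the interval of its ratio included 0 (-0.25, -1.01 to 0.46). At or above 1.2% the 2-day ratio was -0.93, from 3 UMIs. Fgf7, a fibroblast growth factor for epithelia, had 40 and 18 UMIs in the cultures and 2 and 1 in the testes, so it was tested only through the cultures. Igf1 was at 181, 375, 288 and 578 CPM, and Gas6, the ligand of the TAM receptors that Sertoli cells use to take up dying germ cells, at 458, 894, 434 and 473 CPM, high in the 7-day culture alone. The stem cell factor gene Kitl was at 6.72, 8.36, 9.08 and 26.6 CPM, where 14 dpp stood apart. The growth factor midkine, Mdk, was at 952, 600, 1182 and 593 CPM and the adipokine chemerin, Rarres2, at 291, 308, 369 and 397 CPM, neither past the mark in either pair.

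Among genes that hedgehog signalling induces, Ptch1 and Hhip passed the mark after 2 days and not after 7. Ptch1, the hedgehog receptor that the pathway itself induces, was at 74.6, 214, 213 and 232 CPM, with log2 ratios of -1.50 (-1.74 to -1.30) and -0.11 (-0.29 to 0.06). Hhip, a decoy that the pathway also induces (chromosome 8, 79965851 to 80058006), was at 45.6, 130, 181 and 109 CPM, with ratios of -1.96 (-2.27 to -1.72) and 0.25 (0.02 to 0.49). The effector Gli1 was at 29.3, 47.6, 59.5 and 59.9 CPM and its 2-day ratio of -0.99 fell just short of the mark. From the 2-day to the 7-day culture Ptch1 and Hhip were higher by 1.51 and 1.49 on the log2 scale. In cells at or above 1.2% the 2-day ratios were smaller, -0.74 for Ptch1 and -0.87 for Hhip, and neither passed the mark.

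Over the whole list of 31 receptor and hedgehog genes, 3 were higher and 4 lower after 2 days and 5 higher and 1 lower after 7 days, beside 5.22% and 6.49%, and 4.52% and 3.73%, of all genes. With a threshold of 0.6% 1 of 29 was higher and 4 lower after 2 days, beside 4.45% and 6.74% of all genes. With the testis minimum 1 of 28 was higher and 4 lower after 2 days, beside 3.07% and 6.78%. After 7 days 3 were higher and 1 lower, beside 2.51% and 3.72%. Il1r1 and Il6ra, cytokine receptor genes higher in both pairs, reached the minimum only with the UMIs of the cultures. They were at low levels, Il1r1 for interleukin 1 at 16.6, 23.8, 3.40 and 4.49 CPM and Il6ra for interleukin 6 at 12.4, 7.52, 1.59 and 1.87 CPM. Pdgfra, a receptor for platelet-derived growth factor, was level at 207 to 259 CPM. The oestrogen receptor gene Esr1 was rare and lower in both cultures, at 4.24, 3.76, 10.4 and 10.9 CPM, but at or above 1.2% its 2-day ratio turned to 0.08, from 4 UMIs. Of 33 transcription factor genes, 1 was higher and 2 lower after 2 days, and 2 higher and 1 lower after 7 days, close to the share of all genes. With the testis minimum it was none higher and 2 lower of 28, and then 1 higher and none lower. Srf, the serum response factor gene, was at 11.0 CPM in the 2-day culture and 26.3 to 27.7 CPM in the other libraries, a log2 ratio of -1.19, which was -0.10 at or above 1.2%. Nr2f2, a nuclear receptor of mesenchymal cells, was at 287, 439, 551 and 555 CPM, and Tcf21, a factor of testis mesenchyme, at 829, 1217, 1057 and 807 CPM. The forkhead gene Foxs1 was at 109 to 192 CPM. Klf2 was at 126, 234, 182 and 407 CPM.

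Most of the inflammatory genes tested were higher in cultured than in testis myoid cells. Of 29 tested, 26 were higher and none lower after 2 days (median log2 ratio 2.95) and 23 were higher and none lower after 7 days (median 2.18). With the testis minimum 15 were left, of which 12 were higher after 2 days (median 2.11) and 10 after 7 days (median 1.39) and none lower, beside 3.07% and 2.51% of all genes higher. From the 2-day to the 7-day culture 12 were lower and none higher, beside 4.35% and 3.89% of all genes. Saa3, the acute phase protein serum amyloid A3 (chromosome 7, 46711998 to 46715700), had 57393 UMIs after 2 days and 2141 after 7 days of culture, 6 at 9 dpp and 1 at 14 dpp, or 20283, 895, 1.36 and 0.374 CPM. Ccl2, the chemokine that draws monocytes, had 2424, 307, 0 and 4 UMIs and was at least 1258-fold higher in the 2-day culture than at 9 dpp. Vcam1, an adhesion molecule for leukocytes, was at 512, 435, 25.6 and 81.9 CPM, with log2 ratios of 4.27 and 2.39. Nfkbia, the inhibitor that NF-κB induces against itself, was at 679, 309, 86.7 and 118 CPM. The complement gene C3 was at 170 and 150 CPM in the cultures and at 1 and 0 UMIs in the testes, at least 133-fold higher after 7 days. Hp, the haemoglobin scavenger haptoglobin, was at 725 and 93.2 CPM in the cultures, at 1 UMI at 9 dpp and at 0 at 14 dpp, at least 83.0-fold higher after 7 days in the sum over cells. After 7 days 3.71% of the myoid cells held a UMI of it, against 20% for C3. The protease inhibitor gene Serpina3n was at 696 and 100 CPM in the cultures, 0 at 9 dpp and 1.87 CPM at 14 dpp, at least 1022-fold higher after 2 days, though its family has several near-identical copies. Cebpd, a transcription factor of the acute phase response, was at 430, 497, 152 and 236 CPM. Csf1, Nfkb1 and Tnfaip6 passed the mark in neither pair.

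Saa3 UMIs were also found in germ cells, which serve here as the reference for free RNA. They were chosen without an Acta2 or Myh11 UMI, so they may understate the free RNA of myoid cells. Germ cells of the 2-day culture held 679 CPM of Saa3 and those of the 7-day culture 29.1 CPM, and the stroma 31619 and 4211 CPM. Thinned to 2000 UMIs, 78.7% of 2-day myoid cells and 39.2% of 2-day germ cells held a Saa3 UMI, and 9.68% and 2.05% in the 7-day culture (unthinned 79.0% and 63.6%, and 11.9% and 7.18%). For Ccl2 the thinned shares were 29.4% of myoid and 4.05% of germ cells after 2 days, and 2.64% and 0.580% after 7 days (unthinned 31.5%, 7.90%, 3.71% and 1.74%). Hp was in 26.7% and 3.18% after 2 days and 2.99% and 0.312% after 7 days (unthinned 29.9%, 7.20%, 3.71% and 1.09%). For these 3 genes the myoid share was above the germ cell share in both cultures. How much of the myoid signal came from free RNA was not tested.

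Saa3 was lower at each step up the actin classes of the 2-day culture, while the contractile list was higher. In the 2-day culture it was at 34936 CPM in cells just below the threshold (0.15% to 0.3%), 30716 at 0.3% to 0.6%, 11987 at 0.6% to 1.2% and 3759 at 1.2% or more. In the 7-day culture the levels were 2932, 3499, 378 and 181 CPM. The other inflammatory genes summed to 9988, 8508, 5215 and 3119 CPM in the 2-day culture and to 3991, 5144, 2935 and 2014 CPM in the 7-day culture, against 769 to 949 CPM at 9 dpp and 915 to 1397 CPM at 14 dpp. Dcn was lower at each step up the 3 myoid classes of all 4 libraries, with 1499, 686 and 524 CPM in the 2-day culture and 1862, 769 and 547 CPM at 9 dpp. In the cells at or above 1.2%, 18 inflammatory genes reached 50 UMIs, and 13 of them did so in the testes alone. Of these 13, 9 were higher after 2 days and 5 after 7 days, and none lower, beside 3.35% and 2.16% of all genes higher.

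**Figure D5:**
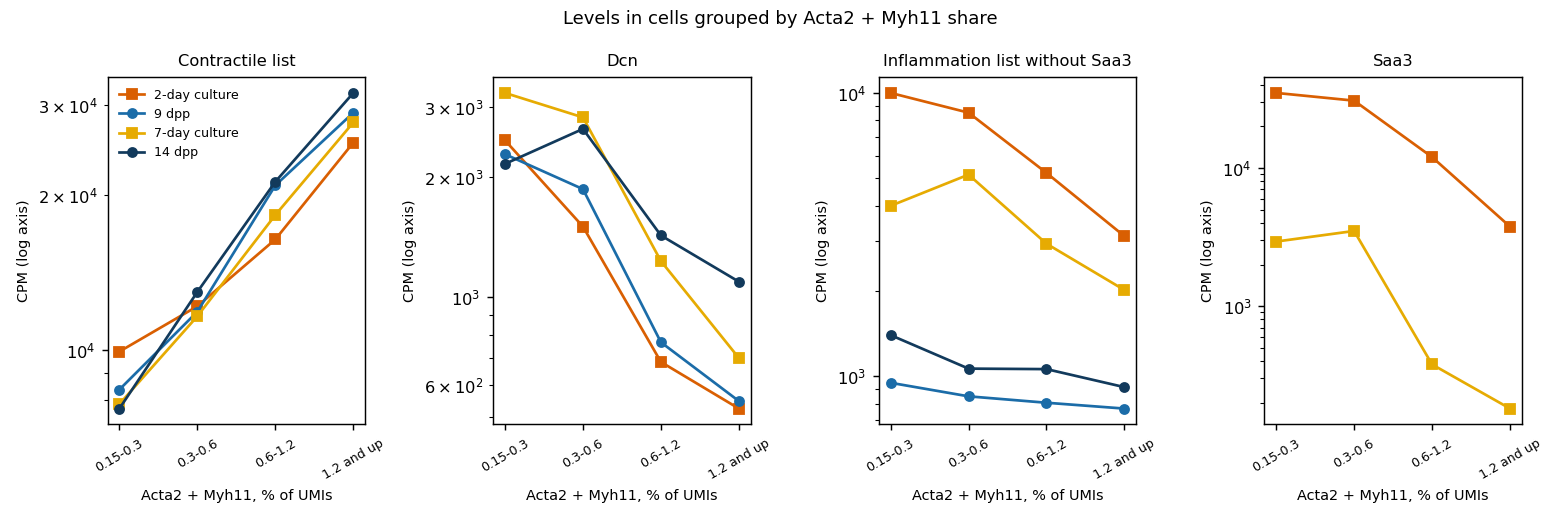
CPM (y axis, log scale) of the contractile list, Dcn, the inflammation list without Saa3, and Saa3 by class of Acta2 plus Myh11 share (x axis, percent of UMIs), 1 line per library, cultures only in the Saa3 panel. The contractile list rises to the right in all libraries, while Saa3 in the 2-day culture goes from 34936 to 3759 CPM.

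Interferon and antigen presentation genes were higher as well, more so after 2 days than after 7. Of 31 tested, 27 were higher and 1 lower after 2 days (median 3.50), and 21 higher and 1 lower after 7 days (median 1.46), beside 5.22% and 4.52% of all genes higher. With the testis minimum 15 were left, of which 12 were higher and 1 lower after 2 days (median 1.81) and 8 higher and 1 lower after 7 days (median 1.19). In cells at or above 1.2% that minimum left 10, with 6 higher and 1 lower (median 1.50), and 4 higher and 1 lower (0.85), beside 3.35% and 2.16% of all genes higher. B2m, the light chain of class I antigen molecules, was at 3298, 1542, 484 and 398 CPM. The heavy chain gene H2-D1 was at 1477, 640, 39.5 and 59.1 CPM and H2-K1 at 847, 374, 34.9 and 63.6 CPM. Both cultures exceeded both testes for all 3, though reads of the class I heavy chains can be split among near-identical copies. Thinned, H2-D1 was found in 76.1%, 61.3%, 7.71% and 10.7% of myoid cells and in 26.1%, 27.2%, 7.07% and 21.7% of germ cells (unthinned 80.3%, 76.5%, 20.1% and 19.9%, and 39.8%, 47.8%, 19.8% and 40.2%). Its share in the testis myoid cells was thus near or below that of germ cells. Ly6a, a surface protein that interferon induces, was at 327 and 33.4 CPM in the cultures and had no UMI in either testis, at least 481-fold and 29.8-fold higher. Iigp1, an interferon-induced GTPase, was at 129 and 36.8 CPM in the cultures and 0.454 and 1.12 CPM in the testes. Ly6a and Iigp1 reached the minimum only with the UMIs of the cultures. Ifi27 was the exception and lower in both, at 52.0, 77.3, 121 and 180 CPM. At or above 1.2% H2-D1 was at 1343, 481, 37.0 and 57.4 CPM, close to the level of all myoid cells. The stroma stood above the myoid cells for 7 of 29 inflammatory genes in the 2-day culture and 11 in the 7-day culture, and for none did myoid cells stand above it, where 1.73% and 4.29% of all genes were lower in myoid cells than in stroma. In the testes 2 inflammatory genes were lower than in stroma at 9 dpp and 9 at 14 dpp, beside 3.86% and 5.36% of all genes. None was higher at 9 dpp and 1 was at 14 dpp, beside 6.91% and 7.74%.

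Immediate early and heat shock genes set the 7-day culture apart. Of 25 tested, 16 were higher and none lower against 14 dpp (median 1.33), against 4 higher and 1 lower after 2 days (median 0.18), beside 4.52% and 5.22% of all genes higher. With the testis minimum it was 14 of 23 higher (median 1.33), and 2 higher and 1 lower after 2 days (-0.01). The median cell thinned to 2000 UMIs held 13, 33, 14 and 15 UMIs of the list, and in stroma 11, 20, 14 and 18. Fos, the first gene to respond to many stimuli, was at 807, 2744, 844 and 1069 CPM and Junb at 996, 2505, 548 and 610 CPM. The chaperone gene Hspa1a was at 263, 2410, 157 and 666 CPM, and counts of it and its near-identical neighbour Hspa1b can be exchanged. The chaperone Hspa8, which is made at all times, was at 1300 to 1520 CPM in all 4 libraries. The NR4A nuclear receptor gene Nr4a1 was at 136, 306, 110 and 67.0 CPM and the zinc finger gene Egr2 at 29.3, 41.0, 8.62 and 3.37 CPM. Egr2 reached the minimum only with the UMIs of the cultures. Ier3, a survival gene that NF-κB induces, was instead high in both cultures, at 124 and 102 CPM against 18.2 and 23.6 CPM.

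Cycling genes were highest at 9 dpp. Of 38 tested, 19 were lower in the 2-day culture than at 9 dpp and 13 lower in the 7-day culture than at 14 dpp, with none higher, beside 6.49% and 3.73% of all genes lower. These counts depended on the settings: 28 and 29 with a threshold of 0.6% (6.74% and 4.2% of all genes lower), 24 and 27 when a Myh11 UMI was required (7.6% and 4.3%), and 11 and 3 with 10 CPM added (1.99% and 0.989%). From 9 to 14 dpp 31 were lower, and from the 2-day to the 7-day culture 32, beside 3.61% and 4.35% of all genes. Mki67, which marks dividing cells, had 29, 9, 206 and 34 UMIs (10.2, 3.76, 46.7 and 12.7 CPM). Top2a, the topoisomerase of dividing cells, was at 26.5, 7.94, 106 and 32.6 CPM, and Cdk1 at 72.8, 35.5, 121 and 46.0 CPM. The 7-day culture was the lowest library for each and 9 dpp the highest. Nusap1, a spindle protein gene, was at 22.6, 2.93, 88.7 and 23.2 CPM. After thinning, 9.60%, 3.35%, 22.2% and 7.93% of cells held at least 3 UMIs of the list. Of 24 hypoxia genes, 3 were higher and 1 lower after 2 days, and none higher and 3 lower after 7 days. This was near the 11.7% and 8.25% of all genes past the mark. With a threshold of 0.6% 1 of 22 was higher and 1 lower after 2 days, beside 4.45% and 6.74% of all genes. The hexokinase gene Hk2 was at 22.3, 38.0, 88.0 and 86.1 CPM, lower in both cultures, and the lactate dehydrogenase gene Ldha at 602, 336, 388 and 357 CPM. Adm, the vasodilator adrenomedullin, was at 34.3, 18.8, 11.1 and 16.1 CPM, highest in the 2-day culture.

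Several genes with high levels in the testis myoid cells were low in both cultures. Sct, which encodes the hormone secretin, was at 68.6 and 166 CPM in the cultures and 632 and 1380 CPM in the testes (log2 ratios -3.19 and -3.05). Tbata, named for its thymus, brain and testis expression, was at 9.54 and 26.3 CPM against 276 and 229 CPM (-4.71, -5.46 to -4.30, and -3.07, -3.52 to -2.74). At or above 1.2% the pattern was the same, with Sct at 188, 271, 708 and 1524 CPM and Tbata at 35.8, 24.5, 271 and 219 CPM. Stroma showed the same direction, with Sct at 97.0, 26.1, 654 and 390 CPM and Tbata at 2.90, 10.4, 41.3 and 28.8 CPM. At 9 dpp the level of Sct in stroma was close to that in myoid cells. The complement protease gene C1s2 (1.41, 0.418, 12.7 and 21.0 CPM) and the noncoding RNA Snhg9 (1.06, 0.836, 26.1 and 13.8 CPM) were also lower in both. C1s2 and Snhg9 reached the minimum only with the UMIs of the testes. The uncharacterised genes Gm8797 (12.7, 11.7, 149 and 119 CPM, lower) and Gm10260 (359, 276, 5.90 and 5.61 CPM, higher, and at the minimum only with the cultures) differed in both pairs, and as predicted gene models their counts are uncertain. So were the haemoglobin genes Hba-a1 and Hbb-bs, whose reads can be split among near-identical copies, and blood markers summed to 315 CPM at 9 dpp, 29.6 CPM at 14 dpp, 2.47 CPM after 2 days and 0 after 7.

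By size of the ratio over stroma in the testes, the leading genes beside Actg2, Cnn1 and Tagln were Sh3bgr, Fbxl22, Tnnt2, Prkcb, Atcayos, Dner and Trac. Tnnt2, the troponin T of heart muscle, was at 172, 326, 734 and 793 CPM in myoid cells and at 4.94 to 17.4 CPM in stroma. Sh3bgr, a gene of striated muscle, was at 62.2, 185, 297 and 562 CPM, and both genes were lower in both cultures. Fbxl22, an F-box protein of heart muscle sarcomeres, was at 221, 416, 338 and 463 CPM against 4.87 to 9.20 CPM in stroma. Dner, a transmembrane Notch ligand, had the other order, at 165, 161, 127 and 90.6 CPM. Atcayos overlaps Atcay on the opposite strand, so its counts are uncertain.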

How the data were processed

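The deposited files hold whole-number UMI counts per gene and cell barcode, made by the authors with Cell Ranger 3.0.2 on mm10, per the submitters' processing notes. Libraries were 10x Chromium 3′ v2, per the labels' protocols. No background correction or doublet removal is given in the sources used here. The labels give all 4 samples the same culture protocol, so the titles decided which were cultured, and the protocol text also mentions female gonads.

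Gene symbols with more than 1 identifier (35 of 31017 symbols) were summed. Of 24851 barcodes, 23670 held at least 500 genes and at most 20% mitochondrial UMIs. Cells were chosen by the marker rule given above, without clustering. Interstitial stroma had under 0.3% Acta2 plus Myh11 and at least 0.2% Col1a1, Col1a2, Dcn and Pdgfra; mural cells had at least 3 pericyte UMIs; germ cells had at least 3 Ddx4 and Dazl UMIs and no Acta2 or Myh11. Scrublet calls were kept.

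Counts were summed over the cells of a library and divided by their total (CPM). The 10414 genes that reached 50 UMIs in all libraries together were compared as the log2 ratio of CPM + 1, called past 1 in size. Intervals of a ratio are exact binomial and leave out the added 1. Exact Poisson (CPM) and exact Clopper-Pearson (shares) intervals are at 95%. A gene at 0 was given the floor of 3 UMIs per library. The ratio script was tested on simulated data. For shares, cells were thinned to 2000 UMIs. Alternatives changed the rule, the filters, the added constant, the scaling (edgeR 4.0.16) and the weight of cells.

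Acta2, Myh11, Tagln and Mylk were always named. From each list, the rule also named the 4 genes with the highest mean CPM and the 2 with the largest ratio past 1 in each direction and culture pair. Over all genes it named the 8 highest and 8 lowest in both pairs, and the 10 with the largest ratio over stroma in both testes. Other listed genes were named after their values were seen. A few listed genes are not reported here by name. The cells, lists and rule were chosen with earlier results of these data known. Coordinates come from GENCODE M21 (GRCm38). Python 3.11.15, numpy 2.4.6, pandas 2.3.3, scipy 1.17.1 and scanpy 1.11.5 were used.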

Additional observations from a re-analysis of the deposited data

How the results depend on the processing

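No paired analysis was possible because each group has 1 library. The share of myoid cells in the 2-day culture against 9 dpp had a log2 ratio of 0.11 with a threshold of 0.15%, -1.09 with 0.6%, -2.27 with 1.2% and -1.11 when a Myh11 UMI was required. In the 7-day culture against 14 dpp it was 0.073 with 0.6%, -0.76 with 1.2% and 0.069 with a Myh11 UMI. Counts of called genes are given for 10 CPM added, no minimum beyond 1 UMI, and at least 200 UMIs. In the 2-day pair 324, 1007 and 272 genes were higher and 207, 1037 and 336 lower. In the 7-day pair 176, 818 and 206 were higher and 103, 916 and 141 lower. From 9 to 14 dpp 51, 513 and 87 were higher and 112, 638 and 156 lower, and from the 2-day to the 7-day culture 94, 658 and 192 were higher and 170, 953 and 191 lower. The number of genes tested differs between these minimums, so the counts are not compared as shares. With the 1.2% threshold, added after the data were seen, 262 genes were higher in the 7-day pair, 248 lower from 9 to 14 dpp and 727 higher from the 2-day to the 7-day culture. With 50 UMIs required in the testes alone, also added then, 281 were higher in the 2-day pair, 230 higher in the 7-day pair and 289 lower from the 2-day to the 7-day culture. With the 1.2% threshold the 2-day median of the fibrillar matrix list was -0.051 and the 2-day ratio of Esr1 0.082, and the cause was not tested. The 7-day fibrillar median, 0.12 as reported, was -0.076 with 0.6%, -0.057 with a Myh11 UMI, -0.18 with 1.2% and -0.036 with 50 UMIs in the testes alone, and the 2-day median of the signal list, -0.04 as reported, was 0.071 with trimmed-mean scaling. Each log2 ratio of a named gene was also set against each alternative. Apart from that Esr1 value, 2786 such pairs moved by no more than the longer arm of the counting interval and 329 moved by more. A change of sign was recorded only where the reported ratio passed 1 in size. Depth limits genes such as Gdnf, Fgf7 and P2rx1, which had under 80 UMIs in every library.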

Other observations

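Trac, the constant region of the T cell receptor alpha chain, was among the 10 genes with the largest ratio of myoid cells over interstitial stroma in the testes. It had 61 UMIs after 2 days and 60 after 7 days of culture, 450 at 9 dpp and 179 at 14 dpp, or 21.6, 25.1, 102 and 67.0 CPM. In stroma it was at 0.811 to 2.77 CPM, and in the mural cells of the testes at 31.2 and 28.9 CPM. The T cell genes Cd3d, Cd3g, Trbc1 and Trbc2 and the leukocyte gene Ptprc had no UMI in the myoid cells of any library. Cd3e had 2 UMIs, both in the 2-day culture, and the T cell kinase gene Lck had 11, 12, 26 and 4.

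The mural cells of the same libraries, chosen by their pericyte UMIs and numbering 33, 45, 62 and 80, also held less smooth muscle RNA in culture. Acta2 was at 837 CPM in the 2-day culture and 1478 CPM in the 7-day culture, against 5526 CPM at 9 dpp and 8674 CPM at 14 dpp. Tagln was at 61.1 and 354 CPM in the cultures and 2116 and 2470 CPM in the testes, a difference that the myoid cells did not show for this gene. Mural cells are few and were not chosen by Acta2, so the 2 cell classes are not matched.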
